A study of Mus musculus with 12 samples.

Results

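The 4 FGF receptors Fgfr1, Fgfr2, Fgfr3 and Fgfr4, the co-receptor Klb, the receptors Met and Mst1r, and the ligands Hgf and Fgf1 were followed across cells of the injured mouse liver. These 9 genes were chosen by symbol, as the rows of the deposited count table that carry these names, out of 53599 genes in the table. All 9 passed the filter on low counts, as did 16210 genes in all. Every group came from mice recorded as wild type that had received AAV8-TBG-Cre, a virus whose hepatocyte-specific promoter drives Cre, so that hepatocytes and their descendants carried EGFP. From 1 week later, the diet of all mice held 0.1% DDC, which damages the bile ducts, for 8 weeks, and no group of uninjured mice was analysed here. Liver cells were then sorted: early cells carried EGFP but neither Cd24 nor Epcam, intermediate cells carried EGFP and Cd24 but not Epcam, and full cells carried all 3. BEC, the resident biliary epithelial cells, were Epcam-positive and EGFP-negative. The study compared these groups as states of hepatocytes that take on a biliary character, with BEC as the reference state. Each group had 3 replicates. The labels do not say whether replicates were separate animals, so p-values measure only the spread between these samples.

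FGF receptors are tyrosine kinases that bind fibroblast growth factors together with heparan sulphate or a klotho protein, and signal through adaptor proteins to RAS and ERK. In hepatocytes, FGFR4 with its co-receptor beta-klotho (Klb) receives the ileal hormone FGF15, which lowers bile acid synthesis. MET and RON (Mst1r) are related receptor kinases. MET binds HGF, which in liver comes mainly from stellate and other mesenchymal cells, and RON binds MST1, which hepatocytes secrete. Both ligands are made as inactive precursors that proteases cleave.

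Libraries held between 15112893 and 19731887 counts. Levels are given as CPM, counts scaled to a common library size with TMM factors, which ran from 0.652 to 0.672 in early libraries, from 1.03 to 1.05 in intermediate and from 1.19 to 1.22 in full and BEC libraries. The sorted identities were examined with marker lists. The summed level of 10 hepatocyte markers ran from 97217 to 101376 CPM in early, 15189 to 19681 in intermediate, 3359 to 4401 in full and 2043 to 2690 in BEC libraries, most of it Alb, with means of 73507, 12631, 2582 and 1653 CPM. The sum of 10 biliary markers ran from 967 to 1929, 9248 to 12167, 11645 to 14916 and 14074 to 17439 CPM in the same order, and Krt19, Cftr and Sctr were at or under 3 counts per library in early cells. Spp1 made up most of this sum, with means of 1237, 9866, 11316 and 12144 CPM, and the sums overlapped between intermediate and full and between full and BEC libraries. Neutrophil markers summed to at most 1.02 CPM and lymphocyte markers to at most 0.373 CPM in any library. Mesothelial markers reached 225 to 249 CPM in BEC, mostly Msln, and macrophage markers 132 to 154 CPM, mostly Csf1r. At an adjusted p under 0.05 in edgeR, Csf1r was higher in BEC than in early cells and Cd68 lower. The other 5 macrophage markers tested did not pass. Of 4 mesothelial markers tested, Msln and Gpm6a were higher in BEC, and Upk3b and Wt1 did not pass. Of all genes, 40% were higher and 33% lower there. The part of either list in the results below was not tested. In bulk samples, fewer cells of a type and less RNA per cell cannot be told apart.

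Of the 9 genes, 6 were higher and 2 lower in intermediate than in early cells, where 54.4% of all genes tested were called (28.7% higher and 25.7% lower). A call means an adjusted p under 0.05 in edgeR's quasi-likelihood test. Fgfr1, Fgfr2, Fgfr3, Fgfr4, Met and Mst1r were the higher genes, and Klb and Fgf1 the lower. Between full and intermediate cells, Fgfr1, Fgfr2 and Fgfr3 were higher and Klb and Fgf1 lower, so 5 of 9 were called against 40.7% of all genes (20.8% higher and 19.8% lower). Between BEC and full cells, Fgfr3 was higher and Fgfr4, Klb and Mst1r were lower, so 4 of 9 were called against 21.3% (10.7% higher and 10.6% lower). The median log2 fold change of the 9 genes over these 3 comparisons was 0.46, 0.11 and -0.15, beside 0.06, 0.01 and 0.00 over all genes. Full against early called 5 of the 9 higher and 3 lower, with 71.2% of all genes called (39.1% higher and 32.1% lower). BEC against early called 4 higher and 3 lower, with a background of 73.1% (40% and 33%). BEC against intermediate called 3 higher and 4 lower, with a background of 52.4% (26.3% and 26.2%). Over all 4 groups, 9 of 9 varied in the F test, as did 75.6% of all genes. Comparisons that share a group share its libraries. When libraries were scaled by total counts alone, the median over all genes in intermediate against early moved from 0.06 to 0.72, and the 9 genes split into 6 higher and 0 lower. That scaling moved the split of all called genes there from 4658 higher and 4159 lower to 9626 higher and 1623 lower, so the directions below are relative to the median gene.

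**Figure D1:**
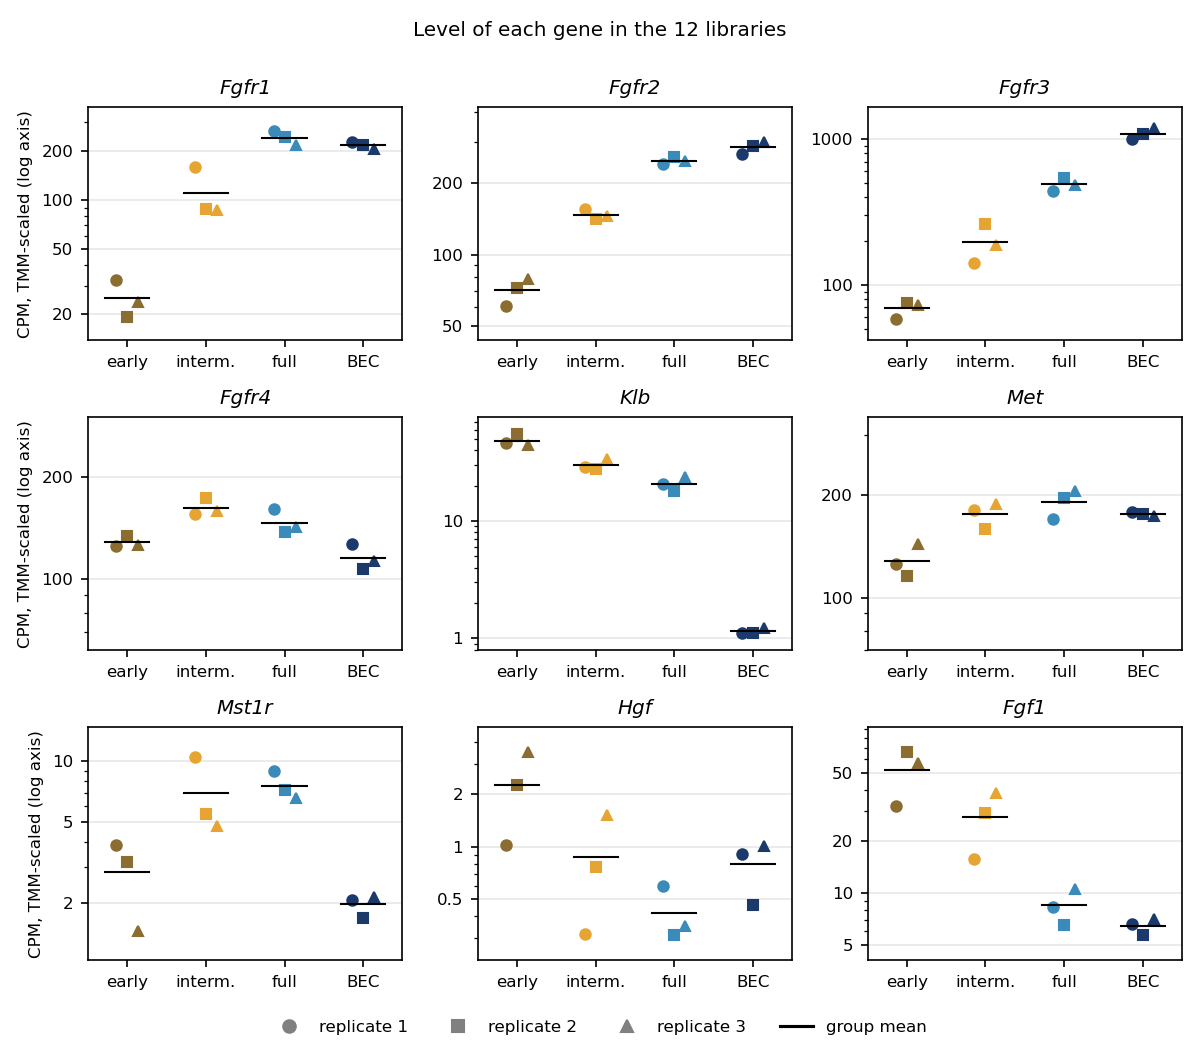
TMM-scaled CPM of each of the 9 genes (log axis, own range per panel) in the 12 libraries, 3 per group; symbols mark the replicate number and black bars the group mean. Fgfr3 reached a mean of 1089 CPM in BEC, and the 3 BEC libraries held Klb at 1.11 to 1.23 CPM against 18.0 to 23.9 CPM in full cells.

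**Figure D2:**
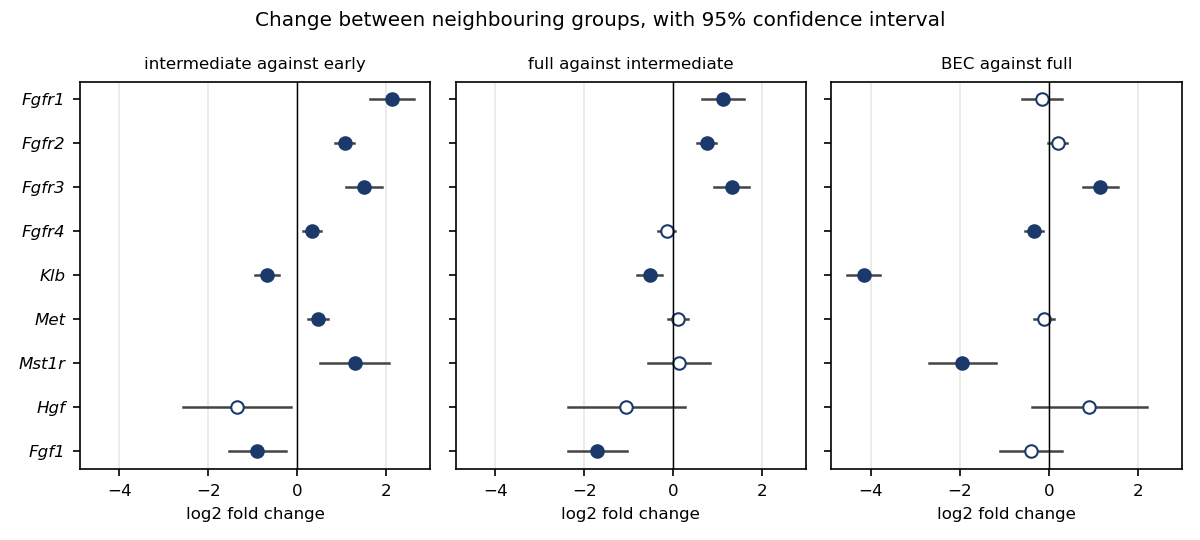
Log2 fold change of each gene between neighbouring groups, with the 95% confidence interval from the edgeR fit; filled points passed an adjusted p under 0.05 and open points did not. Fgfr3 lies to the right in all 3 panels and Klb to the left in all 3; with total-count scaling, Klb was at -0.02 in the left panel and Fgfr4 turned to 0.06 in the middle panel.

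Fgfr1, the receptor with a broad range of ligands that is typical of mesenchymal cells, had the steepest change of the 4 receptors between early and intermediate cells. It measured 32.6, 19.4 and 23.6 CPM in the early libraries and 159, 87.9 and 86.7 CPM in the intermediate ones. In full cells it measured 266, 242 and 216 CPM, and in BEC 226, 218 and 206 CPM. All intermediate libraries lay above all early ones and below all full ones, while full and BEC overlapped. Fgfr1 rose by a log2 fold change of 2.14 (SE 0.23, adjusted p = 3.50e-06) from early to intermediate and by 1.12 (SE 0.22, adjusted p = 0.000944) from intermediate to full cells, by edgeR with n = 3 a group. BEC differed from full cells by -0.15, with a 95% interval from -0.61 to 0.30 (adjusted p = 0.701). Replicate 1 was the highest library in each of the 4 groups for this gene. Leaving out intermediate replicate 1 or any other library left the Fgfr1 calls among early, intermediate and full cells past the threshold. Of the exon bases of Fgfr1, 1.66% lie opposite Gm16159 on the other strand.

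Fgfr2, whose epithelial and mesenchymal splice forms bind different ligands, followed a similar order with less spread. Its levels were 60.7, 71.9 and 78.8 CPM in early, 155, 141 and 145 CPM in intermediate, 242, 258 and 248 CPM in full and 267, 288 and 300.5 CPM in BEC libraries. None of the neighbouring groups overlapped. Fgfr2 rose by a log2 fold change of 1.06 (SE 0.10, adjusted p = 1.12e-06) from early to intermediate and by 0.76 (SE 0.099, adjusted p = 3.96e-05) from intermediate to full cells. The difference of 0.19 between BEC and full cells missed the threshold (95% interval -0.02 to 0.41, adjusted p = 0.208). Gene-level counts do not separate its splice forms. The exons share 3.04% of their bases with Ctbp2 on the same strand.

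Fgfr3 was the only one of the 9 genes called higher in all 3 neighbouring comparisons. This receptor is best known as a brake on growth in cartilage. Early libraries held 58.2, 75.5 and 73.2 CPM, and intermediate libraries 140, 260 and 187 CPM. Full libraries held 444, 539 and 485 CPM, and BEC libraries 1004, 1076 and 1186 CPM. The 4 groups did not overlap at any point. Its log2 fold change was 1.51 (SE 0.19, adjusted p = 1.31e-05) from early to intermediate, 1.32 (SE 0.18, adjusted p = 6.65e-05) to full and 1.15 (SE 0.18, adjusted p = 0.000398) from full to BEC. Between BEC and early cells the log2 fold change was 3.98 (SE 0.20, adjusted p = 5.98e-10), the largest rise among the 9 genes. G630022F23Rik, on the opposite strand, overlaps 13.9% of the exon bases of Fgfr3, and whether counting used strand is not given in the sources used here, so reads of the pair may be mixed.

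Fgfr4, the main FGF receptor of hepatocytes, had means that differed less between the groups than those of the other 3 receptors when scaled with TMM factors. It measured 125, 134 and 126 CPM in early, 156, 173 and 158 CPM in intermediate, 161, 138 and 142 CPM in full and 127, 107 and 113 CPM in BEC libraries. Intermediate libraries lay above the early ones, and early and BEC libraries overlapped. The rise from early to intermediate was 0.34 on the log2 scale (SE 0.092, adjusted p = 0.00677). Full and intermediate cells differed by -0.14 (adjusted p = 0.232), and BEC fell by 0.34 relative to full cells (SE 0.092, adjusted p = 0.0155). This last call was lost without full replicate 1 (adjusted p = 0.0790), BEC replicate 2 (0.0850) or BEC replicate 3 (0.0568). Full and early cells differed by 0.19 (adjusted p = 0.0746), a difference that was called without BEC replicate 1 (adjusted p = 0.0476) and, at 1.06, with total-count scaling (adjusted p = 9.99e-08). On that scale the group means of Fgfr4 were 84.7, 169.8, 176 and 139 CPM from early to BEC. BEC and early cells differed by -0.15, with a 95% interval from -0.35 to 0.05 (adjusted p = 0.163); with total-count scaling the sign turned and Fgfr4 was called higher in BEC, at 0.72 (adjusted p = 4.88e-06). All 10 hepatocyte markers were lower than in early cells in each of the other groups, by log2 fold changes of -3.88 to -0.84 in intermediate, -6.60 to -2.48 in full and -6.75 to -3.13 in BEC, where 25.7%, 32.1% and 33% of all genes were lower. The means of Fgfr4 were 126%, 114% and 90.2% of early in the same groups.

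Set side by side per kilobase of exon, the make-up of the receptors differed between the groups. Fgfr4 held 65.6% ± 1.77, 46.5% ± 1.2, 26.2% ± 2.49 and 14% ± 1.70 of the summed Fgfr1 to Fgfr4 level from early to BEC (SD, n = 3). Fgfr3 held 17.4% ± 1.69, 27.4% ± 6.51, 43.1% ± 3.42 and 64.8% ± 2.29 in the same order. With this length, Fgfr4 had the highest mean share in early and intermediate cells and Fgfr3 in full cells and BEC. Fgfr1 was least in early cells, at 4.66% ± 1.46, and reached 15.4% ± 1.46 in full cells, while Fgfr2 lay between 11.8% and 15.2% in all groups. The summed level of the 4 receptors was 55.3, 98.7, 158 and 234 CPM per kilobase in early, intermediate, full and BEC cells. With the longest transcript as the length, an alternative chosen after the data were seen, Fgfr4 held 51.0%, 32.6%, 16.8% and 8.78%, and Fgfr3 21.4%, 30.4%, 43.7% and 64.2%, so that the pair lay closer together in intermediate cells. Fgfr2 then lay between 16.1% and 22.2% in all groups.

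**Figure D3:**
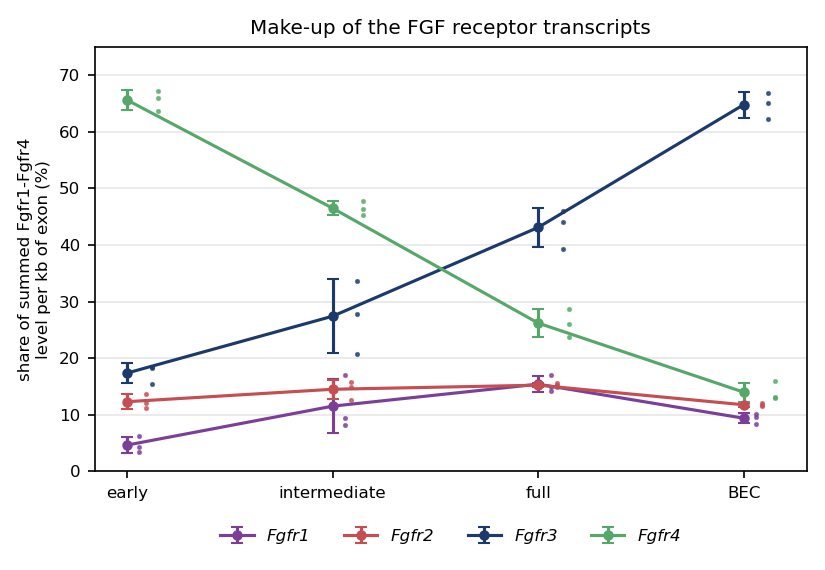
Share of each FGF receptor in the summed CPM per kilobase of exon of Fgfr1 to Fgfr4 (percent); large points and bars are the mean and SD of 3 libraries, small points the libraries, and lines only join the groups. Fgfr4 went from 65.6% in early cells to 14% in BEC, and Fgfr3 from 17.4% to 64.8%.

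Ratios of 2 genes within a library do not depend on the scaling between libraries. Over 369600 assignments of the 12 libraries to 4 groups, exact permutation tests were run for 4 ratios and adjusted over them. The log2 ratio of Fgfr2 to Fgfr4 counts was -0.87 ± 0.19, -0.14 ± 0.14, 0.77 ± 0.16 and 1.30 ± 0.20 from early to BEC (SD, n = 3; exact permutation p = 6.49e-05, the smallest the design allows, adjusted p = 0.00026). The 4 groups did not overlap in this ratio. The ratio of Fgfr1 to Fgfr2 was -1.51 ± 0.53, -0.46 ± 0.43, -0.05 ± 0.17 and -0.39 ± 0.15 (exact permutation p = 0.00519, adjusted p = 0.00693), with early cells below every other group. With 3 libraries against 3, an exact test of a single pair of groups cannot go below 0.1.

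**Figure D4:**
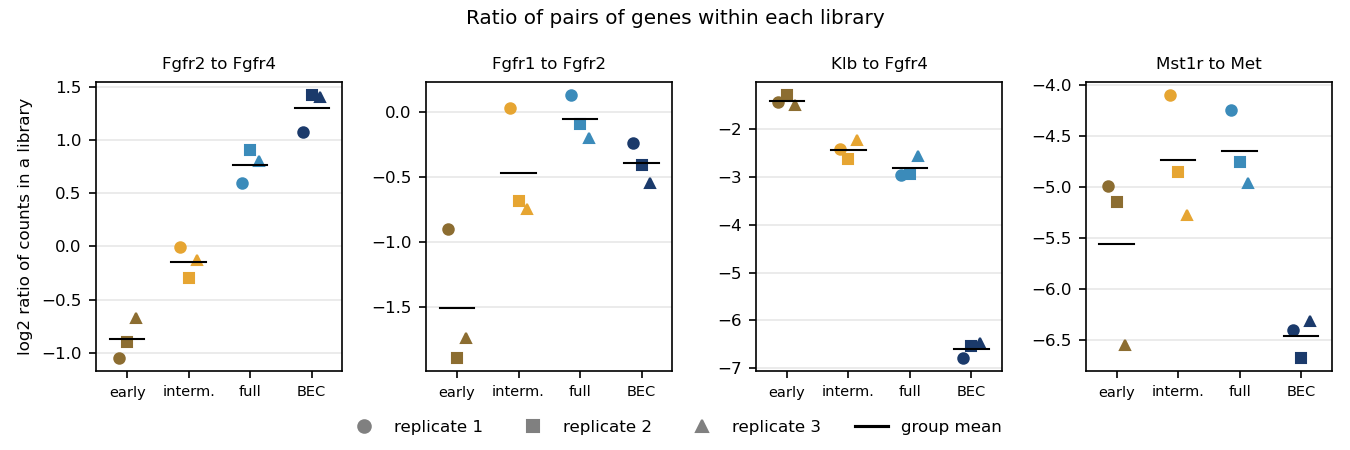
Log2 ratio of counts of 2 genes in each of the 12 libraries, one panel per pair of genes with its own axis range; symbols mark the replicate number and black bars the group mean. Fgfr2 to Fgfr4 rises from -0.87 in early cells to 1.30 in BEC with no overlap, and Klb to Fgfr4 drops to -6.59 in BEC.

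Klb encodes beta-klotho, the protein that FGF15 and FGF21 need to bind their receptors, and of the 9 genes it had the largest fall from early cells to BEC. From early to full cells, Fgf1 and Hgf fell by more than Klb. It measured 46.0, 55 and 44.4 CPM in early, 28.9, 27.7 and 33.7 CPM in intermediate and 20.6, 18.0 and 23.9 CPM in full libraries. The 3 BEC libraries held 1.11, 1.12 and 1.23 CPM, from 23, 24 and 27 counts. No neighbouring groups overlapped. Klb fell by 0.69 on the log2 scale from early to intermediate (SE 0.13, adjusted p = 0.000428), by 0.53 from intermediate to full (SE 0.13, adjusted p = 0.00441) and by 4.17 from full cells to BEC (SE 0.17, adjusted p = 7.07e-09). With total-count scaling the difference between intermediate and early cells was -0.02 (adjusted p = 0.891). On that scale the group means of Klb were 31.9, 31.4, 25.0 and 1.39 CPM from early to BEC. With TMM factors, the log2 fold change of Klb from early was -1.22 in full cells and -5.38 in BEC, beside -6.60 to -2.48 and -6.75 to -3.13 for the 10 hepatocyte markers. All 10 hepatocyte markers were detected in BEC, from Alb at 1653 CPM down, and their part in the Klb counts of BEC was not tested. The log2 ratio of Klb to Fgfr4 was -1.41 ± 0.11, -2.43 ± 0.20, -2.82 ± 0.22 and -6.59 ± 0.17 in early, intermediate, full and BEC cells (SD, n = 3; exact permutation p = 0.00013, adjusted p = 0.00026).

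Promoter sequence is shown for Klb and Mst1r, the pair among the 9 that fell most between full cells and BEC. RefSeq promoter windows on GRCm38.p6 matched 7 of the 9 symbols, and only the bases upstream of the first annotated exon are printed, 5′ to 3′ on the plus strand, with CpG sites in capitals. The Klb stretch is chr5:65348161-65348313 and the Mst1r stretch chr9:107906639-107906872.
Klb: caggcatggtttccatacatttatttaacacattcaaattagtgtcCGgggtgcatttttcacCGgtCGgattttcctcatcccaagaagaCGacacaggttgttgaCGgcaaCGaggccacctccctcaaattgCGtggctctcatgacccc
Mst1r: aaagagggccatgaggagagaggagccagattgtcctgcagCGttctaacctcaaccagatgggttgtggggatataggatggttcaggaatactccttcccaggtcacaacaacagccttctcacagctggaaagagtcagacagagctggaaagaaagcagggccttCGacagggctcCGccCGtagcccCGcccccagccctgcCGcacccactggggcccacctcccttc
The Klb stretch of 153 bases held 7 CpG sites and 49.0% GC, beside medians of 3 CpG and 51.0% over the 32851 windows cut to the same length. The Mst1r stretch of 234 bases held 6 CpG sites and 59.0% GC, beside medians of 5 and 52.1%. Neither stretch held, on either strand, the letters CAAAGT (HNF4A-type), GTTAAT (HNF1-type), GGAATG (TEAD-type), ACAATG (SOX-type), GTGGGAA (RBPJ-type) or CCGGAAG (ETS-type). Between 2.62% and 8.45% of all windows of the Klb length held each of these, and between 5.03% and 12% of those of the Mst1r length.

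The bile acid genes linked to the KLB and FGFR4 receptor were lower alongside Klb. All 4 were tested, and 4, 3 and 2 of them were lower in intermediate against early, full against intermediate and BEC against full, with 0 higher in each, where 25.7%, 19.8% and 10.6% of all genes were lower. Their median log2 fold changes were -2.07, -1.59 and -0.93. With total-count scaling, 2 of the 4 were lower in intermediate against early, where that scaling called 1623 of all 16210 genes tested lower. Cyp7a1, the rate-limiting enzyme of bile acid synthesis, measured 270 ± 63.2, 18.1 ± 6.44, 2.94 ± 1.71 and 3.23 ± 1.89 CPM (SD, n = 3) from early to BEC. Cyp8b1, which sets the share of cholic acid, had 8.57 ± 2.45 CPM in early cells and 0.217 ± 0.0820 CPM in full cells, a fall of 5.26 on the log2 scale (adjusted p = 1.27e-07). Nr1h4, the bile acid receptor FXR, fell by 0.86, 1.2 and 0.90 over the 3 comparisons (adjusted p = 7.81e-06, 1.03e-06 and 2.83e-05). With total-count scaling the call for Nr1h4 between intermediate and early cells was lost, at -0.20 (adjusted p = 0.0860). Esrp1, Esrp2, Rbfox2 and Ptbp1 regulate the choice between the Fgfr2 splice forms. Esrp1 had no count in early or intermediate libraries and reached 10.8 ± 3.87 CPM in full cells and 92.0 ± 5.90 CPM in BEC, so that full cells were at least 57.0-fold higher than intermediate ones, against a floor of 3 counts per library. Esrp2 was lower in full than in early cells, by 1.59 on the log2 scale from 166 ± 1.17 CPM (adjusted p = 5.65e-09), and Rbfox2 was higher by 0.69 (adjusted p = 3.09e-05). Which Fgfr2 forms the cells made was not measured.

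Met, the HGF receptor, was higher in the 3 other groups than in early cells. It measured 126, 116 and 143 CPM in early, 181, 159 and 188 CPM in intermediate, 170.5, 196 and 205 CPM in full and 178, 176 and 174 CPM in BEC libraries. All early libraries lay below every library of the other groups, which overlapped each other. The log2 fold change from early was 0.46 in intermediate (SE 0.10, adjusted p = 0.00196), 0.57 in full (SE 0.10, adjusted p = 0.000220) and 0.46 in BEC (SE 0.10, adjusted p = 0.00122). Full against intermediate differed by 0.11 (95% interval -0.11 to 0.33, adjusted p = 0.417), and BEC against full by -0.11 (-0.33 to 0.11, adjusted p = 0.532). With total-count scaling Met passed the threshold in full against intermediate, at 0.31 (adjusted p = 0.0265).

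Mst1r, which encodes the MST1 receptor RON, was low throughout and highest in intermediate and full cells. Early libraries held 3.88, 3.18 and 1.46 CPM and intermediate libraries 10.6, 5.48 and 4.81 CPM. Full libraries held 8.98, 7.22 and 6.56 CPM and BEC libraries 2.07, 1.68 and 2.15 CPM, from 36 to 47 counts. The intermediate and full libraries overlapped each other and lay above all early and BEC libraries. Mst1r rose by 1.29 on the log2 scale from early to intermediate (SE 0.36, adjusted p = 0.00746), differed by 0.13 between full and intermediate (adjusted p = 0.780) and fell by 1.95 from full to BEC (SE 0.35, adjusted p = 0.00103). BEC and early cells differed by -0.53 (95% interval -1.34 to 0.29, adjusted p = 0.223), a difference that turned to 0.34 (adjusted p = 0.408) with total-count scaling and was called without early replicate 3, at -0.84 (adjusted p = 0.0478). Per kilobase of exon, Mst1r was at 1.52 ± 0.249 CPM and Met at 24.8 ± 2.32 CPM in full cells (SD, n = 3). The log2 ratio of Mst1r to Met was -5.56 ± 0.85, -4.74 ± 0.60, -4.65 ± 0.37 and -6.46 ± 0.19 from early to BEC (SD, n = 3; exact permutation p = 0.0231, adjusted p = 0.0231). Replicate 1 was the highest of the 3 libraries in early, intermediate and full cells for Mst1r, as for Fgfr1.

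Hgf, the ligand of MET, was close to the limit of detection. Its counts were 13, 25 and 43 in early, 5, 14 and 27 in intermediate, 14, 7 and 8 in full and 19, 10 and 22 in BEC libraries, or 1.03, 2.27 and 3.48, then 0.314, 0.767 and 1.53, then 0.596, 0.312 and 0.350, and 0.915, 0.466 and 1.01 CPM. Early libraries overlapped the intermediate ones and lay above the full ones. Full cells were lower than early cells by 2.41 on the log2 scale (SE 0.59, adjusted p = 0.00227), and BEC by 1.5 (SE 0.56, adjusted p = 0.0261). The BEC call was lost without early replicate 2 (adjusted p = 0.0511), early replicate 3 (0.150) or BEC replicate 2 (0.0988), and with total-count scaling (-0.64, adjusted p = 0.294). Between intermediate and early cells the difference of -1.36 missed the threshold (adjusted p = 0.0549); with the replicate number as a block it passed, at -1.38 (adjusted p = 0.0345). It also passed with DESeq2 (adjusted p = 0.0327), with median-of-ratios factors (0.0468), without the filter on low counts (0.0361), and without early replicate 1 (0.0201) or intermediate replicate 3 (0.0166). Of 10 stellate cell and fibroblast markers, none of which was at 0 in a whole group, 8 were lower in full than in early cells, Ngfr was higher and Des was not called, where 32.1% of all genes were lower and 39.1% higher. In intermediate against early cells, Dcn was the 1 marker called, and it was lower, as were 25.7% of all genes. The markers' sum ran from 99.4 to 284 CPM in early, 60.4 to 171 in intermediate, 49.4 to 78.1 in full and 52.9 to 90.7 in BEC libraries. Group means of Hgf were 38.5%, 18.5% and 35.2% of early in intermediate, full and BEC, and those of the stellate sum 51.9%, 29.4% and 33.5%. In each library Hgf was between 0.448% and 1.32% of that sum, and the part of such cells in the Hgf counts was not tested. Of the exon bases of Hgf, 6.74% are shared with Gm43489 on the same strand.

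The proteins that process HGF and MST1 divided by direction. Of 11 listed genes, 10 were tested, and full against early called 5 higher and 5 lower, where 39.1% and 32.1% of all genes were called. Mst1, Hgfac, Hpn, Klkb1 and F12 were lower, which are the MST1 precursor and the mainly hepatocyte-made proteases. St14, Plau, Plat, Spint1 and Spint2 were higher, which are proteases and protease inhibitors of epithelial or tissue origin. Spint1, an inhibitor of the HGF activator and of matriptase, measured 0.308 ± 0.0646, 3.63 ± 2.10, 84.8 ± 16.0 and 246 ± 10.2 CPM (SD, n = 3) from early to BEC. Plau, the urokinase protease, measured 0.170 ± 0.148, 0.578 ± 0.382, 9.08 ± 1.68 and 40.0 ± 7.95 CPM. Klkb1, plasma kallikrein, went the other way, from 197 ± 11.8 to 47.7 ± 6.32, 5.62 ± 2.04 and 2.29 ± 1.36 CPM. The list's median log2 fold change was -0.31, -0.14 and 0.09 over the 3 neighbouring comparisons, and with total-count scaling the values for the first pair turned to 0.35 and 0.07.

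Fgf1, a ligand that binds all FGF receptors, was lowest in full cells and BEC. Early libraries held 32.3, 66.2 and 57.0 CPM and intermediate libraries 15.7, 29.1 and 38.2 CPM. Full libraries held 8.34, 6.56 and 10.6 CPM and BEC libraries 6.60, 5.68 and 7.04 CPM. Early and intermediate libraries overlapped, since early replicate 1 lay below intermediate replicate 3, and replicate 1 was the lowest in both groups. Fgf1 fell by 0.90 on the log2 scale from early to intermediate (SE 0.30, adjusted p = 0.0192) and by 1.70 to full cells (SE 0.31, adjusted p = 0.000617), while BEC and full cells differed by -0.40 (adjusted p = 0.469). The first of these calls was lost without early replicate 2 (adjusted p = 0.0909), early replicate 3 (0.0584) or intermediate replicate 1 (0.0666), and with total-count scaling (-0.24, adjusted p = 0.475). Full cells had 16.4% of the early level of Fgf1, a log2 fold change of -2.60 that lay within the range of the 10 hepatocyte markers, near Hnf4a at -2.61.

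Few other FGF ligands were detected. Of 21 further Fgf genes, 15 had at most 12 counts in every library, 7 of them with no count at all, and 6 were tested. Fgf21, a hormone that hepatocytes release and that signals through KLB, was the gene the naming rule chose. It measured 9.45 ± 5.99, 3.17 ± 0.405, 0.541 ± 0.231 and 0.126 ± 0.121 CPM (SD, n = 3), and fell by 4.12 on the log2 scale between early and full cells (adjusted p = 1.01e-05). Its call between intermediate and early cells was lost without early replicate 1 (-0.94, adjusted p = 0.0929) and with total-count scaling (-0.90, adjusted p = 0.0951). Fgf11, Fgf12 and Fgf13, members of the intracellular branch of the family that does not act through these receptors, were the 3 of 6 called higher in full than in early cells, beside 39.1% of all genes. Fgf12 had no count in early libraries and 4.70 ± 1.44 CPM in full cells, at least 17.2-fold higher against the floor of 3 counts per library.

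Among 12 co-receptors and partners of these receptors, 7 were higher and 2 lower in full than in early cells, beside 39.1% and 32.1% of all genes. The median log2 fold changes over the 3 neighbouring comparisons were 0.57, 0.35 and -0.04. Cd44, which presents HGF to MET, measured 43.7 ± 19.1, 256 ± 99.1, 530 ± 63.0 and 880 ± 93.2 CPM (SD, n = 3). Sdc3, a heparan sulphate proteoglycan, rose by 3.65 on the log2 scale between early and full cells (adjusted p = 1.66e-06), and Sdc2, another syndecan, fell by 1.70 (adjusted p = 1.41e-08). Of 12 adaptors and proximal signalling proteins, 5 were higher and 0 lower in intermediate than in early cells, 3 and 0 in full than in intermediate, and 0 and 2 in BEC than in full, where the fit with the replicate number as a block called 3 and 2. All genes were called higher and lower at 28.7% and 25.7%, 20.8% and 19.8%, and 10.7% and 10.6% in these 3 comparisons, without the block. Gab2 rose by 1.82 and 0.62 (adjusted p = 7.95e-06 and 0.0148), Cbl by 0.81 and 0.63 (adjusted p = 0.000153 and 0.00143), and Gab1 by 0.82 and 0.40 (adjusted p = 1.5e-05 and 0.00583) over the first pair of comparisons. The second Gab2 call was lost without intermediate replicate 3 (adjusted p = 0.0704) or full replicate 1 (0.0804). Gab1 and Gab2 are docking proteins, and Cbl marks activated receptors for degradation. Over the 3 neighbouring comparisons the medians of the 12 adaptors were 0.25, -0.01 and -0.05, beside 0.06, 0.01 and 0.00 over all genes. Full against early called 6 adaptors higher and 3 lower (39.1% and 32.1% of all genes), the lower ones being Grb2, Sos1 and Stat3. BEC against early called 4 higher and 4 lower (40% and 33%), the lower ones being Grb2, Sos1, Plcg1 and Crkl. Against early cells the adaptor medians were 0.26 in full and -0.06 in BEC, beside 0.14 over all genes in both. With total-count scaling, 11 of the 12 adaptors and 10 of the 12 co-receptors were called higher in intermediate than in early cells. That scaling called 9626 of all 16210 genes tested higher there.

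Feedback inhibitors and ERK-induced transcription factors were mostly higher in intermediate, full and BEC than in early cells. Of 14 tested, 9 were higher and 1 lower in intermediate than in early cells, and 5 higher and 1 lower in full than in intermediate. In BEC against full cells, 0 were higher and 5 lower, namely Spry1, Spry4, Dusp4, Fgfrl1 and Etv4. The shares of all genes are those given for the adaptors. Against early cells, full called 10 higher and 1 lower (39.1% and 32.1% of all genes), and BEC 9 higher and 3 lower (40% and 33%), with medians of 1.78 and 1.63. BEC against intermediate called 4 higher and 3 lower (26.3% and 26.2%), with a median of 0.09. The medians over the 3 neighbouring comparisons were 1.4, 0.37 and -0.37, beside 0.06, 0.01 and 0.00 over all genes. Etv4, an ETS factor induced by FGF signalling, measured 0.552 ± 0.0964 CPM in early cells, then 38.5 ± 16.4, 39.0 ± 10.9 and 9.40 ± 0.742 CPM in intermediate, full and BEC (SD, n = 3). It rose by 6.10 on the log2 scale from early to intermediate (SE 0.40, adjusted p = 3.79e-08) and fell by 2.05 from full to BEC (SE 0.26, adjusted p = 6.74e-05). Spry2, an inhibitor of receptor signalling, measured 0.0809 ± 0.14, 3.29 ± 2.04, 16.1 ± 0.826 and 21.1 ± 4.89 CPM (SD, n = 3) from early to BEC. Its early libraries held 0 to 3 counts, so the size of its first rise (adjusted p = 6.43e-05) was not fixed: the fitted log2 value ran from 4.58 to 8.95 when a library was left out. From intermediate to full cells it rose by 2.31 (adjusted p = 0.000135). Spred3, a related inhibitor with 2 to 12 counts in early libraries, rose by 4.23 and 1.25 (adjusted p = 2.31e-05 and 0.0120), and the first value ran from 3.58 to 5.34 when a library was left out. The second of these Spred3 calls was lost without intermediate replicate 2 or 3 or full replicate 1 (adjusted p = 0.0614, 0.0526 and 0.0569). Dusp6, a phosphatase of ERK, was not called in any of the 3 neighbouring comparisons. It measured 236 ± 57.7, 191 ± 63.2, 163 ± 49.1 and 133 ± 30.0 CPM (SD, n = 3) from early to BEC. BEC against early called it lower, as it did Dusp4 and Fgfrl1, where 33% of all genes were lower.

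**Figure D5:**
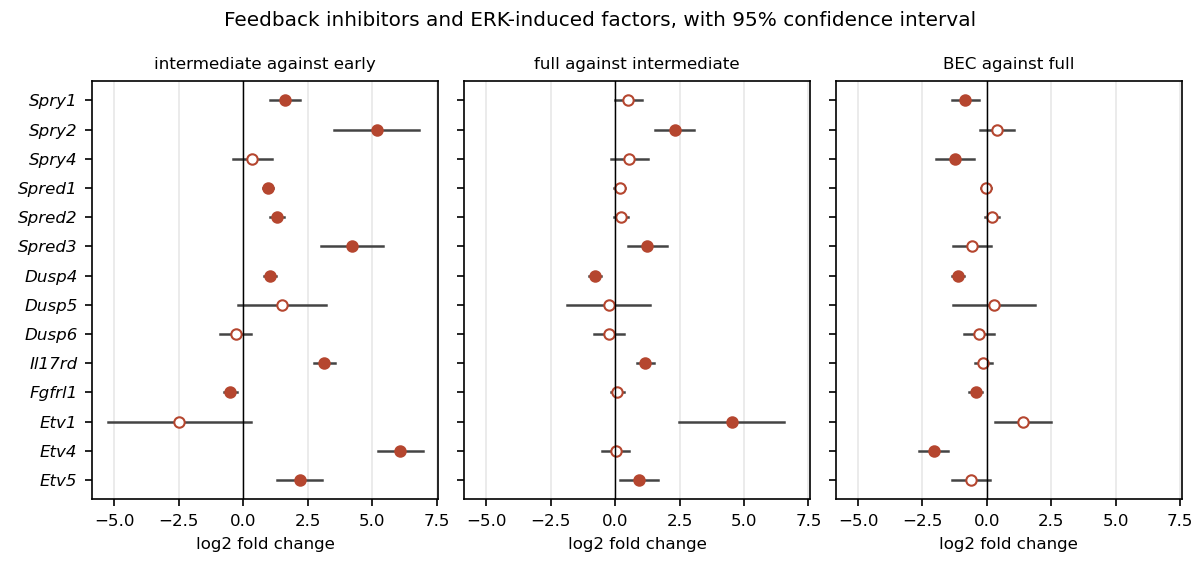
Log2 fold change of the 14 tested feedback inhibitors and ERK-induced factors between neighbouring groups, with 95% confidence intervals; filled points passed an adjusted p under 0.05. In intermediate against early 9 filled points lie to the right and 1 to the left, and in BEC against full all 5 filled points lie to the left.

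The genes whose log2 CPM was most like each of the 9, among 9957 genes with a mean of at least 10 CPM, are given as a description over 12 libraries that fall into 4 groups. Fgfr2 tracked Col4a6 and Ccnd2 (r = 0.997 for both), and 1753 genes exceeded r = 0.9 with it. Klb tracked Cped1 (r = 0.994) and Enpep (r = 0.993), and 247 genes exceeded 0.9. Fgfr1 tracked Hap1 (r = 0.996) and Gprc5a (0.994), Fgfr3 Pwwp2b (0.994) and Ezr (0.993), Met Alpk1 (0.968) and Cmtr2 (0.957), and Fgf1 Fads6 and Ell2 (0.979 for both). Fgfr4, with Plrg1 (0.963) and Prdx2 (0.930), and Mst1r, with Anapc7 (0.957) and Mtmr11 (0.916), had the fewest such genes, 10 and 5. Hgf tracked the fibroblast genes Dcn (0.948) and Col3a1 (0.931), and 16 genes exceeded 0.9.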

How the data were processed

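Bulk RNA-seq counts per gene symbol were used as the authors deposited them, for 12 libraries of sorted mouse liver cells, 3 in each of 4 groups taken from the sample titles. STAR 2.7.10b, featureCounts 2.0.1, DESeq2 and the build GRCm39 are named in the submitters' processing notes. Strandedness and the handling of multi-mapped reads are not given in the sources used here. The deposited table of counts divided by size factors was not used.

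Low genes were removed with filterByExpr, given the group of each library. TMM scaling, edgeR 4.0.16 (limma 3.58.1, R 4.3.3) and its quasi-likelihood test were applied in 1 fit over all 12 libraries with a term per group, with Benjamini-Hochberg adjustment over 16210 genes and calls under 0.05. The biological coefficient of variation was 14.8%. Standard errors and 95% intervals come from this fit, and log2 CPM used a prior count of 2. Floors of 3 counts (0.128 to 0.273 CPM per library) cover counting error only. Ratios of 2 genes used log2 of counts plus 1. Exon lengths and overlaps come from GENCODE M21 on GRCm38, matched by symbol, so no gene coordinates are given; promoter stretches come from RefSeq on GRCm38.p6. Figures used Python 3.11.15 and matplotlib 3.10.9.

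Replicate numbers are shared between groups in the titles. Libraries with the same number deviated from their group means together. Across genes, r lay between 0.121 and 0.293 in early and intermediate and between 0.137 and 0.322 in intermediate and full. In full and BEC it lay between 0.170 and 0.257, and in the other comparisons the lowest r was under 0.1. The numbers may therefore pair the libraries of neighbouring groups, but libraries with different numbers were not compared in this way. Replicates differed beyond counting noise (chi-square per degree of freedom 5.36 to 58.6).

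The 9 genes, the 7 pathway lists (79 genes, 78 in the table, 62 tested; Spry3 had no row) and the marker lists (endothelial markers summed to at most 31.7 CPM) were chosen with earlier results of these data known. The values of 1 marker gene are not reported here. From each list, the text names the 3 genes with the largest change between full and early cells among called genes whose higher group mean reached 5 CPM; other genes are named where a count of 5 or fewer is spelled out or, for Dusp6, after its values were seen. Alternatives were DESeq2 1.42.0, other scaling, filters, a 2-fold minimum change, the replicate number as a block, only the 6 libraries compared, other pseudocounts and leaving out each library.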

Additional observations from a re-analysis of the deposited data

How the results depend on the processing

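Of the log2 fold changes of the 9 genes, 392 values kept their direction and their side of the threshold under settings that used all libraries of a comparison, and 621 did when a library was left out. Under the former settings 22 values lost the call, 6 gained one and 6 changed sign; with a library left out, 9 lost it, 4 gained one and 14 changed sign. Against a minimum 2-fold change, 2, 1, 2 and 4 of the genes were called in intermediate against early, full against intermediate, BEC against full and BEC against intermediate, beside 8, 5, 4 and 7; all genes called there were 2773, 1931, 803 and 3202. Leaving out each library gave 7 to 9 called in intermediate against early, 3 to 4 in BEC against full, 6 to 7 in BEC against early and 8 to 9 in full against early, and 5 and 7 throughout in full against intermediate and BEC against intermediate.

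Total-count scaling reversed Fgfr4 in full against intermediate (0.0555) and in BEC against early (0.72), Mst1r in BEC against early (0.34) and Hgf in BEC against intermediate (0.0654). The split of called genes in full against early went from 6340 higher and 5201 lower to 10766 and 2395, in BEC against early from 6491 and 5351 to 10669 and 2624, in full against intermediate from 3376 and 3214 to 5236 and 1976, and in BEC against intermediate from 4259 and 4243 to 5833 and 2933. The difference of Met between BEC and intermediate, within 0.01 of 0, turned without a filter (-0.0205) and in a fit of 6 libraries (-0.0130), and ran from -0.0681 to 0.0458 when a library was left out. With a library left out, Mst1r in full against intermediate ran from -0.0830 to 0.56, Hgf in BEC against intermediate from -0.53 to 0.53, Etv4 in full against intermediate from -0.24 to 0.41 and Cyp7a1 in BEC against full from -0.33 to 0.67. Of these reversed values, Fgfr4 in BEC against early was the only one past the threshold. The cause was not tested in any case.

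The replicate block gave 9, 5 and 4 of the 9 genes called in the 3 neighbouring comparisons. Hgf in intermediate against early (-1.38, adjusted p = 0.0345) was the only call among the 9 genes that changed. In BEC against full, the block called 0 feedback genes higher and 7 lower, beside 0 and 5. It called 3 adaptors higher and 2 lower there, beside 0 and 2. In intermediate against early it called 10 and 2 feedback genes, beside 9 and 1, and 5 and 1 adaptors, beside 5 and 0. In full against intermediate it called 6 and 1 feedback genes, beside 5 and 1, and 4 bile acid genes lower, beside 3. The shares of all genes given above come from the fit without the block. All 4 within-library ratios stayed past the threshold under every alternative run, the block included (adjusted p = 0.00347 for the log2 ratio of Fgfr2 to Fgfr4). Among the 9 genes, Hgf had the lowest counts, 5 to 43 a library, and a minimum mean of 50 counts removed it; that filter also left 2 of the 6 other Fgf genes and 3 of the 4 bile acid genes.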
